A study of Mus musculus with 6 samples.

Results

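The genes of the interferon response, with the receptors, kinases and transcription factors through which it runs, were compared between B-1a and B-1b cells of the mouse peritoneal cavity. Members were taken by gene name: the IFIT, IFITM, IFI, ISG, OAS, GBP, IRGM, IRF (without Irf4), STAT, IFNAR, IFNGR and JAK names together with Trim21, Trim25, the Trim30 genes, Usp18, Rsad2 and Bst2. Of 7834 gene names in the deposited table, 63 met this rule, and 60 of these reached the level needed for a test, which was at least 1 FPKM (fragments scaled to transcript length and library size) in at least 2 of 4 libraries. Irf7, Gbp10 and Ifi213 did not. Rsad2 and several family members that the rule would take were not analysed here. The rule used names and no measured value.

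The cells were wild type and came from C57BL/6 mice, a common laboratory strain, with no treatment given in the labels. B-1 cells are innate-like B cells, and B-1a cells carry CD5 on their surface while B-1b cells do not. Cells of each subset were purified by sorting, and poly-A RNA was sequenced. Neither the age of the mice nor whether animals were pooled is given in the sources used here. The study states 3 replicates per group, but the replicates numbered 3 are arithmetic products of the others. Over the 101 rows of the 63 genes, the third B-1b column repeated the first in all 101, and the third B-1a column held the average of the first and second in 100 (relative tolerance 1e-06). The exception was Stat5b, described with its values. The comparison therefore had 2 libraries per group. Nothing in the labels says whether these came from separate animals, so p-values measure the spread between these libraries, which may be technical.

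Interferons are secreted proteins that warn cells of infection. Type I interferons bind the receptor built from Ifnar1 and Ifnar2, and interferon gamma binds that of Ifngr1 and Ifngr2. The receptors activate JAK kinases, which phosphorylate STAT factors. A complex of STAT factors with Irf9 then binds the interferon-stimulated response element (ISRE), whereas STAT dimers bind gamma-activated sites (GAS), and the genes so induced block viral entry, replication and release. B-1 cells are known to answer type I interferon and the Toll-like receptor signals that evoke it.

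These response elements can be read in the promoters of the genes compared. RefSeq promoter windows of GRCm38.p6, from 250 bases before to 50 bases after a start site, were matched by symbol for 55 of the 63 genes. The ISRE core searched was GAAA, any 2 bases and GAAA, on either strand. It was present in 28 of the 55 (50.9%) and in 3.99% of the 27025 genes with such windows. The core was found in 5 of 6 IFIT and IFITM genes, 7 of 8 guanylate-binding protein and IRG GTPase genes and 5 of 6 IFI200 genes, but in 0 of 4 receptor and 0 of 3 kinase genes. The GAS motif TTCNNNGAA, a palindrome, was present in 14 of the 55 (25.5%) and in 9.55% of all. Both motifs overlapped in 2 genes, Bst2 and Ifitm3. The sequences below are those of Bst2, Ifi207 and Ifnar1, which are among the genes described below, and of typical response genes for contrast. They run 5′ to 3′ on the strand of the gene, with ISRE cores and GAS motifs in capitals. On the other strand the core reads TTTC, any 2 bases and TTTC, and the run of capitals in Bst2 joins a GAS motif and a pair of overlapping ISRE cores.
Bst2, chr8:71537473-71537722, minus strand: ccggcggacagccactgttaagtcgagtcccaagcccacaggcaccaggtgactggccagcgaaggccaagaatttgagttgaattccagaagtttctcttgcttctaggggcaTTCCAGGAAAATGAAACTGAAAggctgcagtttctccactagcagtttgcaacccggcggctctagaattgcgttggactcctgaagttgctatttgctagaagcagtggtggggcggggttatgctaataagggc
Ifi207, chr1:173741810-173742059, minus strand: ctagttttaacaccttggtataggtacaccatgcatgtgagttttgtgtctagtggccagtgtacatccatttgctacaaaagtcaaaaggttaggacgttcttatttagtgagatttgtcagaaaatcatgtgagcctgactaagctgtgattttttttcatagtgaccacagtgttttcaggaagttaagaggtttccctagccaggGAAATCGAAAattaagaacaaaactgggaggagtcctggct
Ifnar1, chr16:91485115-91485224, plus strand: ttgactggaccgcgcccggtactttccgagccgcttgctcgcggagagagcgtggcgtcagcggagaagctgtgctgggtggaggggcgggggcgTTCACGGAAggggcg
Isg15, chr4:156200855-156200916, minus strand: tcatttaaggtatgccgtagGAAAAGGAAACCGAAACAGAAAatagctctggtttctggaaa
Ifit1, chr19:34640765-34640833, plus strand: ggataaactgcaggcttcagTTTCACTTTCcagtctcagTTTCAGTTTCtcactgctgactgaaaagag
Gbp2b, chr3:142594690-142594739, plus strand: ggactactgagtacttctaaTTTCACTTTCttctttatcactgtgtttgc
Irf1, chr11:53769904-53769952, plus strand: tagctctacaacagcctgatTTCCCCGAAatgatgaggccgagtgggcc
The Bst2 and Ifi207 stretches run from 250 bases to 1 base before the start site, and that of Ifnar1 from 100 before to 10 after it. Ifnar1 has a GAS motif across its start site and no ISRE core in the window, Isg15 has 3 overlapping ISRE cores, and Irf1 has the GAS motif without an ISRE core. A match is a match of letters, and binding was not measured.

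The whole table gave the frame for the comparison. FPKM summed to between 324330 and 366992 per library, and the sequencing depth behind the values is unknown, so no counting error can be given. Cd5, the surface marker of the sort, had 0.446 and 0.757 FPKM in B-1a against 0.895 and 0.737 FPKM in B-1b, so its transcript did not separate the groups. The B cell genes Cd79a and Cd79b were at 1077 to 2219 FPKM in every library. Transcripts of other cell types were present as well. Of 12 macrophage and monocyte markers, 11 were in the table, and their summed level was 4785 and 3618 FPKM in B-1a against 4518 and 7610 FPKM in B-1b, most of it from Lyz2 (3238 to 6824 FPKM). All 11 had positive log2 fold changes (56.2% of all genes) and 9 had both B-1b values above both B-1a values (25.8% of all genes), among them Adgre1 (51.1 and 56.0 against 90.4 and 101 FPKM) and Itgam, which peritoneal B-1 cells also carry. The platelet marker Pf4 (136 and 106 against 209 and 272 FPKM) and the mast cell proteases Cma1 (45.2 and 47.6 against 77.0 and 53.9 FPKM) and Mcpt4 (18.8 and 18.6 against 31.2 and 20.6 FPKM) were likewise higher in both B-1b libraries. The other mast cell marker present, Cpa3 (26.9 and 25.6 against 45.4 and 23.0 FPKM), overlapped between the groups. Lyz2 (4345 and 3238 against 3927 and 6824 FPKM) and C1qa (21.9 and 4.03 against 16.1 and 137 FPKM) overlapped too. The markers without overlap separated the libraries as Ifnar1, Bst2 and Ifi207 did, and their part in those results was not tested. The 5 T cell markers present were at no more than 4.86 FPKM in any library, and the 4 NK cell markers were not analysed here. In bulk RNA, fewer cells of a type and less RNA per cell cannot be told apart.

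Over the 60 genes tested with limma on log2(FPKM + 1), none passed a false discovery rate (FDR) of 0.05, against 15 of 7557 genes overall (0.198%; 0.159% higher and 0.0397% lower in B-1b). An unadjusted p under 0.05 was given to 6 of the 60 (10%) and to 9.66% of all genes tested, so their share was near the background. Those higher in B-1b were Ifnar1, Bst2 and Ifi207 (background of higher genes 5.39%), and those lower included Stat5b and Ifngr2 (background of lower genes 4.27%). Both libraries labelled B-1b lay above both labelled B-1a for 12 genes and below them for 8, where 25.8% and 17.3% of all genes tested did so. The 20 genes without overlap make up 33.3% of the 60, against 43.1% overall. The median log2 fold change, B-1b over B-1a, was 0.091 over the 60 genes and 0.054 over all genes tested. The log2 fold change was within 0.5 of 0 for 47 of the 60 genes (78.3%) and for 72.4% of all genes tested. Without B-1a replicate 1 the median was -0.005 and 29 genes in place of 40 had a positive value, so the group as a whole had no direction that every set of libraries kept.

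**Figure D1:**
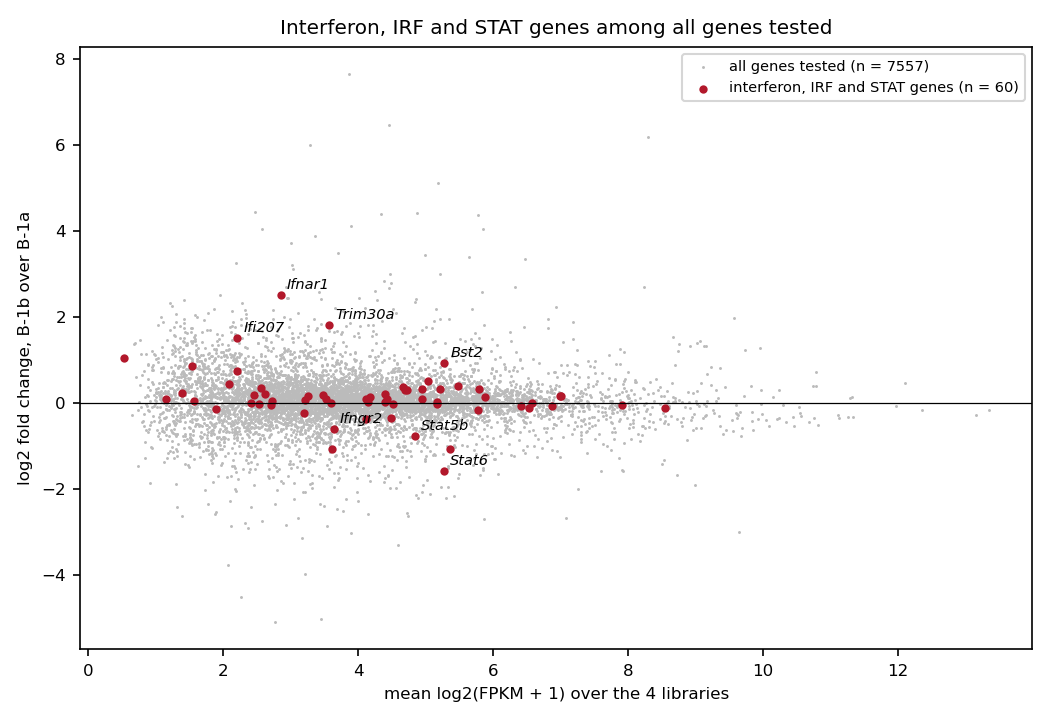
Log2 fold change, B-1b relative to B-1a (y axis), against the mean log2(FPKM + 1) over 4 libraries (x axis), with 1 grey point per gene tested and the 60 interferon, IRF and STAT genes in red. Labels mark genes described in the text with an unadjusted p under 0.05 or an absolute log2 fold change above 1.5. Most red points lie close to 0, as do most grey points.

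Among the receptor genes, Ifnar1 differed most. This gene, which encodes a subunit of the type I interferon receptor, lies on chromosome 16 of GRCm38 from 91485238 to 91507441. It was at 1.41 and 2.83 FPKM in B-1a and at 16.8 and 15.7 FPKM in B-1b. Both libraries labelled B-1b were far above both labelled B-1a, with means of 2.12 ± 1.01 and 16.2 ± 0.766 FPKM (SD, n = 2 each), a 7.65-fold difference. The log2 fold change on the log2(FPKM + 1) scale was 2.50 (standard error 0.31), which understates the fold of so low a gene. Its p was the 47th smallest of 7557 genes (limma, adjusted p = 0.175). The difference was larger than the spread between replicates and stayed between 2.17 and 2.84 with any library left out, but it did not pass the FDR. Both deposited rows of the gene moved in this way, the larger from 0.874 and 2.12 to 12.6 and 13.2 FPKM and the smaller from 0.533 and 0.710 to 4.15 and 2.43 FPKM.
The partner subunit, Ifnar2, lies 79.6 kb upstream of Ifnar1 on the same strand. It was at 20.5 and 19.3 FPKM in B-1a and at 20.2 and 22.5 FPKM in B-1b. Its libraries overlapped (log2 fold change 0.09, standard error 0.16). Thus the mean level of Ifnar1 per length of transcript was well below that of Ifnar2 in B-1a and closer to it in B-1b.
Ifngr2, which follows Ifnar1 by 39.6 kb and encodes the signaling subunit of the interferon gamma receptor, went the other way. It was at 12.7 and 16.3 FPKM in B-1a and at 9.09 and 9.03 FPKM in B-1b. The groups did not overlap, with a log2 fold change of -0.61 (standard error 0.20, limma, adjusted p = 0.477). Leaving out single libraries kept its sign (-0.78 to -0.44), though such fits have 1 library in a group. Ifngr1, the ligand-binding subunit, was at 48.4 and 62.6 FPKM in B-1a and at 58.9 and 63.1 FPKM in B-1b, with overlap. Neighbours on the chromosome therefore did not share a direction.

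The kinase genes were all measured well above the level needed for a test. Jak1, which serves both interferon receptors, was at 122 and 117 FPKM in B-1a and at 154 and 115 FPKM in B-1b, where the B-1b libraries lay on either side of B-1a. Jak2, which acts at the interferon gamma receptor, was at 26.4 and 26.7 FPKM in B-1a and at 45.7 and 32.3 FPKM in B-1b. Its groups did not overlap, though the B-1b libraries differed from each other by more than B-1b replicate 2 did from B-1a (log2 fold change 0.52, standard error 0.22, limma, adjusted p = 0.569). The value was 0.27 with B-1b replicate 1 left out and 0.76 with B-1b replicate 2 left out. Jak3, the partner of the common gamma chain of interleukin receptors, was at 20.8 and 23.9 FPKM in B-1a and at 34.7 and 22.1 FPKM in B-1b. In all 3 genes B-1b replicate 1 was the highest of the 4 libraries.

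Of the STAT genes described, none had higher values in both B-1b libraries than in both B-1a libraries, where 25.8% of all genes tested did. Those described that were lower in both were Stat4 and, on the deposited values, Stat5b, where 17.3% of all genes tested were. Stat2, a part of the ISRE-binding complex, was at 11.2 and 11.1 FPKM in B-1a and at 11.9 and 10.4 FPKM in B-1b, with overlap and a log2 difference of -0.01 (standard error 0.18).
Stat4, best known downstream of interleukin-12, was at 25.6 and 23.4 FPKM in B-1a and at 20.4 and 17.5 FPKM in B-1b. Its groups did not overlap (log2 fold change -0.36, standard error 0.17, limma, adjusted p = 0.603). Stat3, which follows interleukin-6 and interleukin-10, was at 16.9 and 16.4 FPKM in B-1a and at 18.7 and 15.3 FPKM in B-1b, with overlap.
Stat5b, which follows interleukin-7 and growth hormone signals, was deposited at 41.0 and 32.7 FPKM in B-1a and at 24.1 and 18.1 FPKM in B-1b. On these values both B-1b libraries were lower (log2 fold change -0.78, standard error 0.23, limma, adjusted p = 0.415). It is the gene in which B-1a replicate 3 departed. That column holds 21.9 FPKM, where the mean of replicates 1 and 2 is 36.9, and it equals the mean if replicate 2 is taken as 2.73 FPKM, 30 below the value deposited. With 2.73 FPKM in B-1a replicate 2, an alternative added after the data were seen, the log2 fold change was 0.81 (limma, adjusted p = 0.852), of opposite sign, and the B-1a libraries enclosed both B-1b libraries. With B-1a replicate 2 left out it was -0.94. The sign thus depends on whether the deposited or the implied value is used. Stat5a, its close paralog, was at 4.75 and 1.24 FPKM in B-1a and at 5.88 and 4.22 FPKM in B-1b, with overlap.
Stat6, the interleukin-4 factor, showed the largest spread inside a group among the STAT genes. It was at 72.3 and 60.0 FPKM in B-1a and at 5.60 and 74.4 FPKM in B-1b, so that B-1b replicate 1 stood alone and B-1b replicate 2 was above both B-1a libraries. The log2 fold change of -1.58 had a standard error of 1.24. Leaving out B-1b replicate 1 gave 0.17, and leaving out B-1b replicate 2 gave -3.34.

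**Figure D2:**
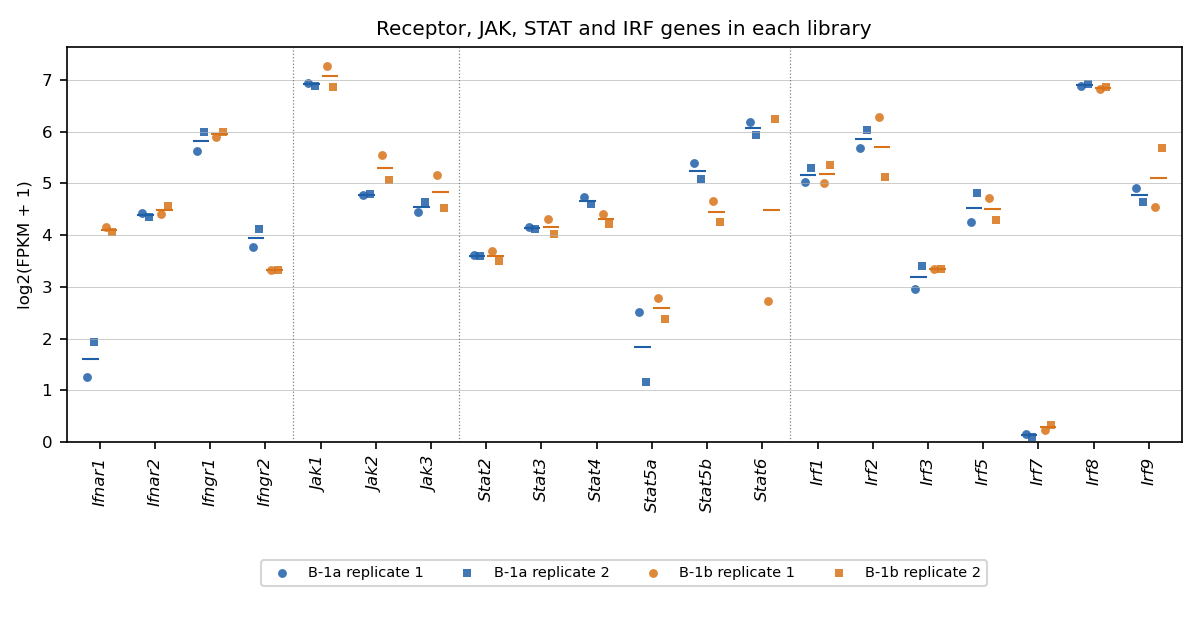
Level of receptor, JAK, STAT and IRF genes as log2(FPKM + 1) on the y axis, with 1 point per library (blue B-1a, orange B-1b; circles replicate 1, squares replicate 2) and a line at each group mean. Ifnar1 is separated upward and Ifngr2 downward in B-1b, and Stat6 of B-1b replicate 1 lies apart from the other 3 libraries.

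The IRF genes encode factors that bind ISRE-like sequences. Of 6 tested, 1 did not overlap between groups, where 43.1% of all genes tested did not, and log2 fold changes ran from -0.15 to 0.33. Irf8, a factor of B cell and myeloid development, had the highest level, at 117 and 121 FPKM in B-1a and at 112 and 115 FPKM in B-1b. Its groups were separate by a small margin, a log2 fold change of -0.07 (standard error 0.14, limma, adjusted p = 0.890). Irf1, an activator induced by interferon gamma, was at 31.8 and 38.3 FPKM in B-1a and at 31.2 and 40.1 FPKM in B-1b, and the groups covered the same range.
Irf3, which is activated by nucleic acid sensing to induce interferon genes, was at 6.80 and 9.58 FPKM in B-1a and at 9.18 and 9.20 FPKM in B-1b. Irf5, which acts downstream of Toll-like receptors, was at 18 and 27.0 FPKM in B-1a and at 25.4 and 18.5 FPKM in B-1b. Neither gene separated the groups. Irf7, the amplifier of type I interferon production and itself strongly induced by interferon, stayed between 0.0769 and 0.258 FPKM in all 4 libraries, too low to be tested.
Irf2, an antagonist of Irf1 at shared sites, was at 50.5 and 64.3 FPKM in B-1a and at 77.2 and 33.8 FPKM in B-1b, and the B-1b libraries were the highest and the lowest of the 4 (log2 fold change -0.74 with the first B-1b library left out and 0.43 with the second left out). Irf9, the DNA-binding part of the ISRE complex, was at 29.2 and 24.0 FPKM in B-1a and at 22.2 and 50.2 FPKM in B-1b, with B-1b replicate 2 alone above the rest. Its log2 fold change of 0.33 became -0.24 when B-1b replicate 2 was left out and 0.90 when B-1b replicate 1 was. Within the ISRE complex, Stat2 did not separate the groups and Irf9 turned on 1 library.

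Bst2, or tetherin, which holds budding virions at the cell surface, had the smallest p among the interferon-induced genes taken by the name rule. It lies on chromosome 8 and was at 26.7 and 27.6 FPKM in B-1a and at 45.9 and 60.5 FPKM in B-1b. The groups were well apart, with means of 27.2 ± 0.674 and 53.2 ± 10.4 FPKM (SD, n = 2 each) and a 1.96-fold difference. The log2 fold change was 0.93 (standard error 0.20, limma, adjusted p = 0.293). It ran from 0.74 to 1.13 with single libraries left out. Ifi35, a cytosolic protein induced by interferon, was at 35.0 and 41.4 FPKM in B-1a and at 45.8 and 55.1 FPKM in B-1b, without overlap (log2 fold change 0.39, standard error 0.18, limma, adjusted p = 0.601). Bst2 and Ifi35 were highest in B-1b replicate 2, the library with the highest summed macrophage markers, and the part of those cells in the difference was not tested. Without that library the log2 fold change of Bst2 was 0.74.
Isg15, a ubiquitin-like modifier and one of the most responsive interferon targets, gave no difference. It was at 5.53 and 5.72 FPKM in B-1a and at 4.96 and 5.96 FPKM in B-1b (log2 difference -0.04, standard error 0.22). Ifi27l2a had the highest level of all 63 genes, at 404 and 377 FPKM in B-1a and at 242 and 536 FPKM in B-1b, where the B-1b libraries enclosed those of B-1a. Ifi30, a lysosomal thiol reductase of antigen processing, was at 199 and 303 FPKM in B-1a and at 234 and 239 FPKM in B-1b, inside the B-1a range.

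The IFIT genes encode proteins that bind foreign RNA, and Ifit1 and Ifit3 were at low levels. Ifit1 was at 0.867 and 1.5 FPKM in B-1a and at 2.22 and 3.85 FPKM in B-1b. The groups did not overlap (log2 fold change 0.87, standard error 0.40, limma, adjusted p = 0.596). Ifit3, at 3.82 to 4.65 FPKM in B-1a and 5.43 to 5.95 FPKM in B-1b, was likewise separate. Ifit1bl1, a relative of Ifit1, was at 22.1 and 15.9 FPKM in B-1a and at 11.8 and 16.9 FPKM in B-1b, with overlap. The membrane proteins of the IFITM family, which restrict viral entry, were higher in level and overlapped throughout. Ifitm3 was at 123 and 119 FPKM in B-1a and at 109 and 170 FPKM in B-1b, and Ifitm2 had between 25.8 and 36.7 FPKM in all libraries.
The OAS genes encode sensors of double-stranded RNA that synthesize oligoadenylates, or relatives of these enzymes. All 5 overlapped between groups, while 43.1% of all genes tested did not, and log2 fold changes ran from -0.03 to 0.19. Oas1a was at 10.2 and 8.98 FPKM in B-1a and at 9.72 and 12.3 FPKM in B-1b. Oas3 had 4.24 to 5.59 FPKM and Oasl1 had 3.21 to 5.24 FPKM over the 4 libraries. Oasl2 divided the libraries by replicate number and not by subset, at 3.32 and 0.0777 FPKM in B-1a and at 3.61 and 0.141 FPKM in B-1b.

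Guanylate-binding proteins and immunity-related GTPases attack the vacuoles of intracellular pathogens and are strongly induced by interferon gamma. Of 10 tested, 3 did not overlap, against 43.1% of all genes tested. Gbp2b had the largest negative value of this family, at 39.5 and 86.9 FPKM in B-1a and at 21.5 and 34.6 FPKM in B-1b. Both B-1b libraries were lower, but the B-1a libraries differed widely from each other (log2 fold change -1.08, standard error 0.47, limma, adjusted p = 0.583). The value was -1.64 without B-1a replicate 1 and -0.52 without B-1a replicate 2. Gbp3, the most abundant, was at 79.9 and 111 FPKM in B-1a and at 92.6 and 97.0 FPKM in B-1b, and Ifi47 was at 66.6 to 102 FPKM over all libraries, neither with separation. For Gbp8 the table lists 0 in each B-1a library, against 1.04 and 1.12 FPKM in B-1b, and a fold against a listed 0 is not given. It reached the level for a test through its B-1b libraries alone, so its lack of overlap, here and among the 12 genes higher in both B-1b libraries, was set by that filter.
The IFI200 proteins, many of which bind DNA in the nucleus or cytosol, are encoded by a cluster on chromosome 1. Of 6 tested, 3 were higher and 1 was lower in both B-1b libraries, where 25.8% and 17.3% of all genes tested were. Ifi207 was at 1.51 and 2.0 FPKM in B-1a and at 8.86 and 5.2 FPKM in B-1b. The groups were apart by 4.01-fold in the mean, with a log2 fold change of 1.51 (standard error 0.35, limma, adjusted p = 0.328) that ran from 1.18 to 1.85 with single libraries left out. Ifi203 was at 21.4 and 21.4 FPKM in B-1a and at 29.5 and 26.7 FPKM in B-1b (log2 difference 0.38, standard error 0.15, limma, adjusted p = 0.560), and Ifi204 was also higher in both B-1b libraries, at 2.32 and 3.03 against 3.39 and 4.58 FPKM. Ifi209, the most abundant, was at 99.2 and 91.0 FPKM in B-1a and at 77.6 and 99.8 FPKM in B-1b, with overlap. Ifi214 was lower in both B-1b libraries by a small margin, at 3.21 and 2.68 against 2.51 and 2.58 FPKM. The IFI200, GBP, OAS, IFIT and Trim30 genes are families of similar sequence, and the quantification could have split reads between their members.

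**Figure D3:**
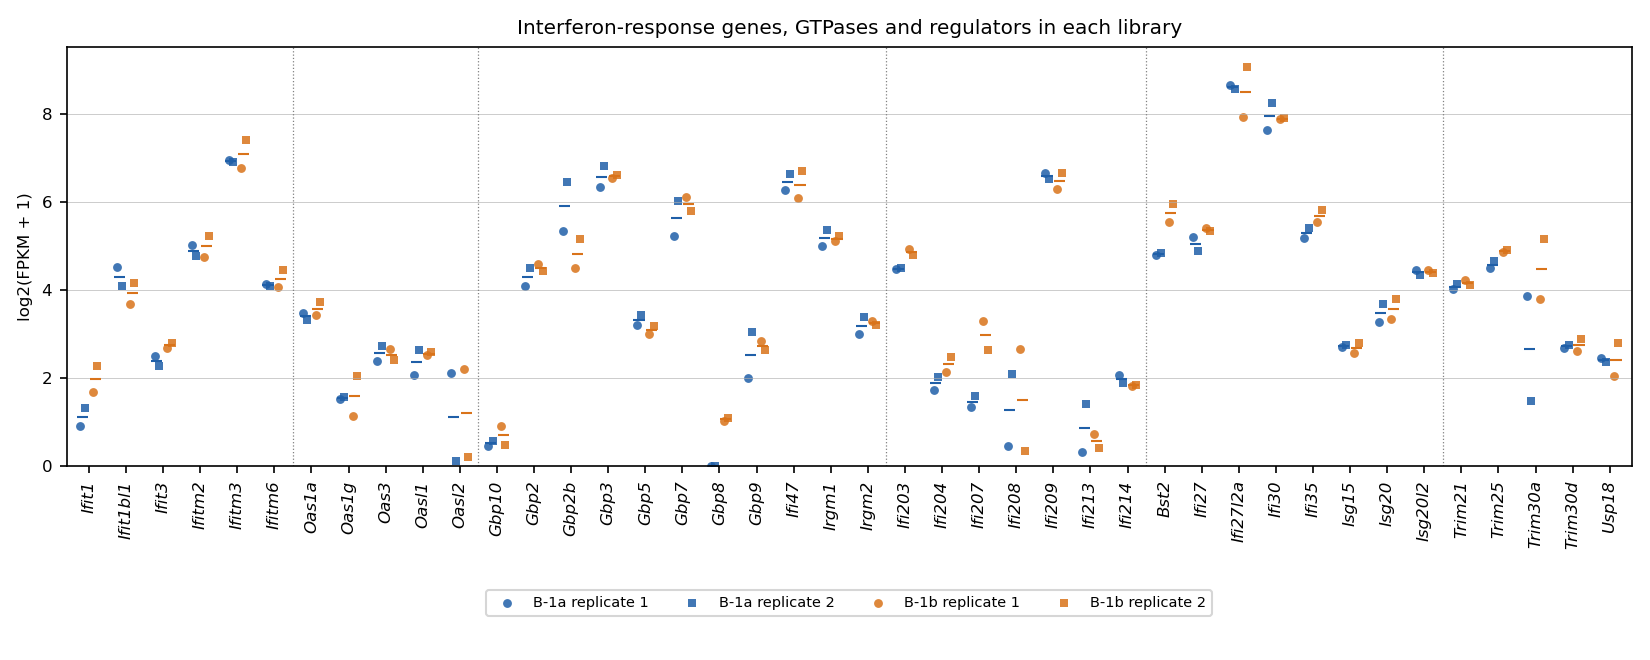
Level of each interferon-response gene as log2(FPKM + 1) on the y axis, with 1 point per library (blue B-1a, orange B-1b; circles replicate 1, squares replicate 2), a line at each group mean and dotted lines between families. Bst2 and Ifi207 are higher in both B-1b libraries, Isg15 and the OAS genes overlap, and Trim30a, Oasl2 and Ifi208 spread widely inside a group.

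Among the regulators, Trim25, a ubiquitin ligase that activates RNA sensing, was at 21.5 and 24.1 FPKM in B-1a and at 27.9 and 28.8 FPKM in B-1b. The groups were close but separate (log2 fold change 0.31, standard error 0.16, limma, adjusted p = 0.616). Trim21, the cytosolic antibody receptor, was at 15.1 to 17.6 FPKM in all libraries. Trim30a, a ligase that dampens Toll-like receptor signals, was at 13.4 and 1.76 FPKM in B-1a and at 12.8 and 34.9 FPKM in B-1b. Its log2 fold change of 1.82 had a standard error of 0.98 and came to 0.62 without B-1a replicate 2 and to 3.01 without B-1a replicate 1. Usp18, which removes Isg15 from proteins and restrains the type I receptor, was at 3.09 to 5.95 FPKM with overlap.

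**Figure D4:**
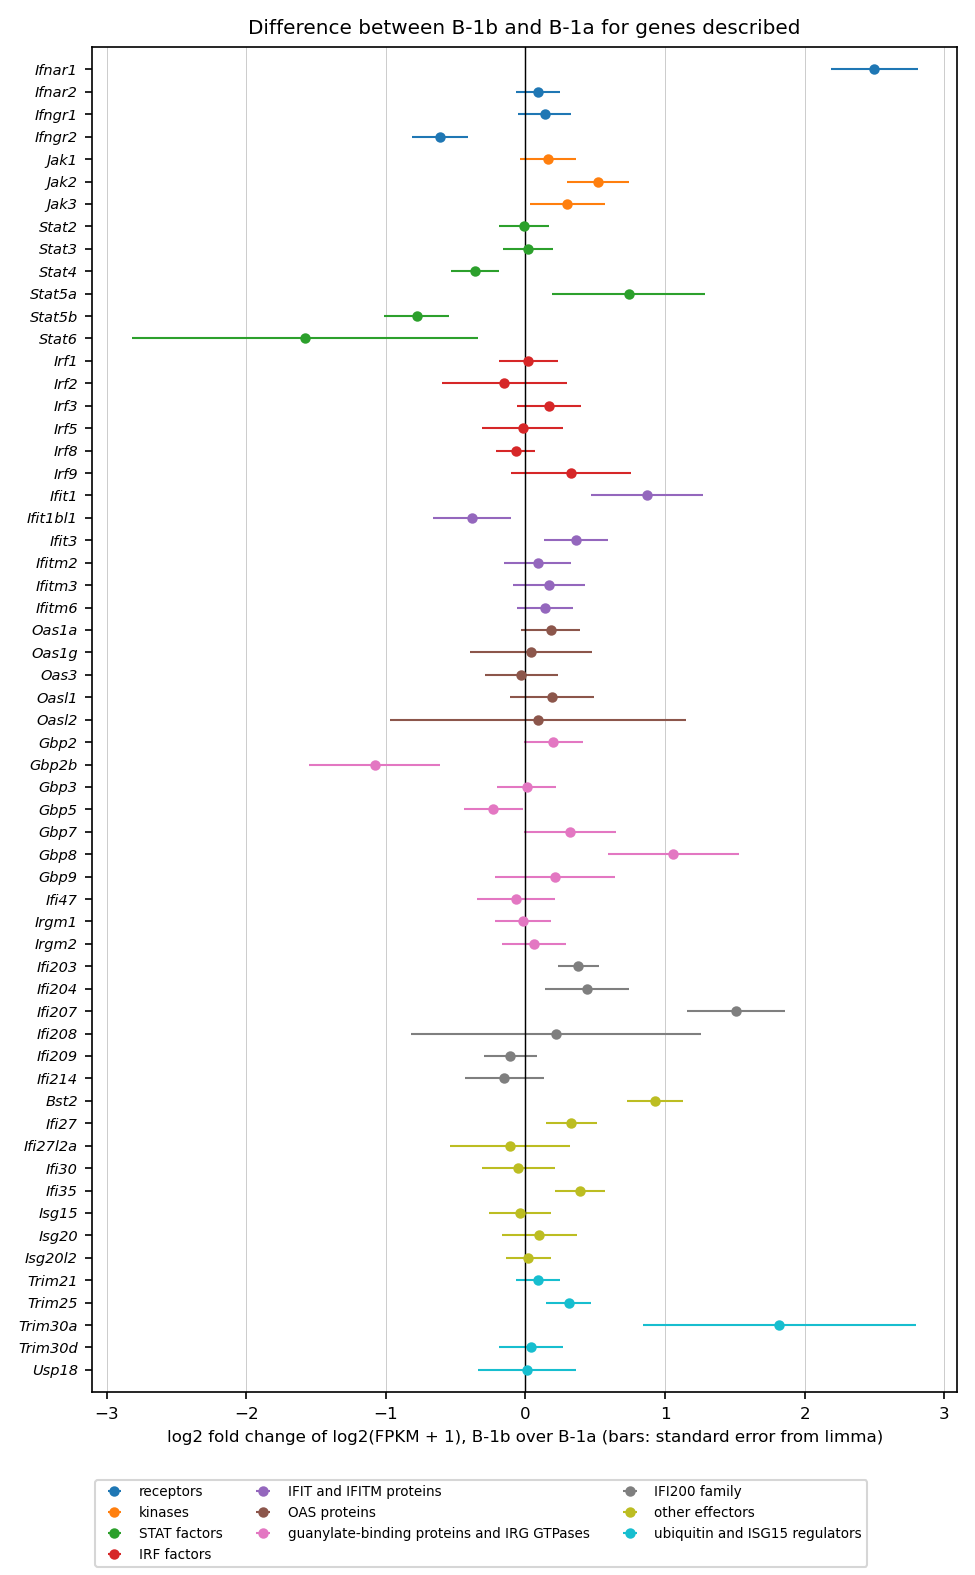
Log2 fold change of log2(FPKM + 1), B-1b over B-1a (x axis), for the genes described, with bars for the standard error from limma and colours for the families. Ifnar1 lies at 2.50 and Ifngr2 at -0.61, while 47 of the 60 genes lie within 0.5 of 0, as do 72.4% of all genes tested. Gbp8 is plotted although it is listed at 0 in B-1a.

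Genes with and without an ISRE core were counted by direction, and the difference between them was not tested. Of 27 tested genes with an ISRE core in a promoter window, 17 had a positive log2 fold change, 5 were higher and 4 lower in both B-1b libraries, and the median was 0.06. Of 26 tested genes with a window and no ISRE core, 18 were positive, 4 were higher and 3 lower in both B-1b libraries, and the median was 0.10. Over all genes tested, 56.2% were positive, 25.8% were higher and 17.3% lower in both B-1b libraries. Bst2 and Ifi207 were among the former, and Ifnar1, Stat5b and Ifngr2 among the latter.

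Of the 63 genes, 24 had several rows in the table, as transcripts of a gene would, and 3 of these had rows in opposite directions without overlap. Of all 3355 names with several rows, 14.5% had such rows, so the 3 of 24 were near the background. Gbp5 was the clearest. Its first row went from 7.62 and 9.46 FPKM in B-1a to 3.51 and 4.02 FPKM in B-1b and its second from 0.611 and 0.342 to 3.50 and 4.08 FPKM. The sum over both rows was lower in B-1b by a small margin, at 8.23 and 9.80 against 7.01 and 8.10 FPKM, a log2 fold change of -0.23 (standard error 0.21). It ran from -0.34 to -0.11 with single libraries left out and was -1.0 for the first row alone. In Ifi203, 2 of 6 rows were higher in both B-1b libraries, one of them from 1.08 and 1.81 to 7.17 and 5.47 FPKM, and another was lower, from 1.21 and 3.20 to 0.188 and 0.115 FPKM. The third such gene was Ifi214, where the row that was higher in B-1b had at most 0.460 FPKM.
In other genes the rows differed between libraries of the same group. A row of Irf2 was listed at 0 in B-1a replicate 1 and in B-1b replicate 2, but was at 28.6 and 33.5 FPKM in the other 2 libraries. The first row of Ifngr1 was at 22.3 and 59.5 FPKM in B-1a and its second at 24.7 and 2.97 FPKM, while the sum of the gene varied less. The table does not name the transcripts, so the rows cannot be tied to isoforms.

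**Figure D5:**
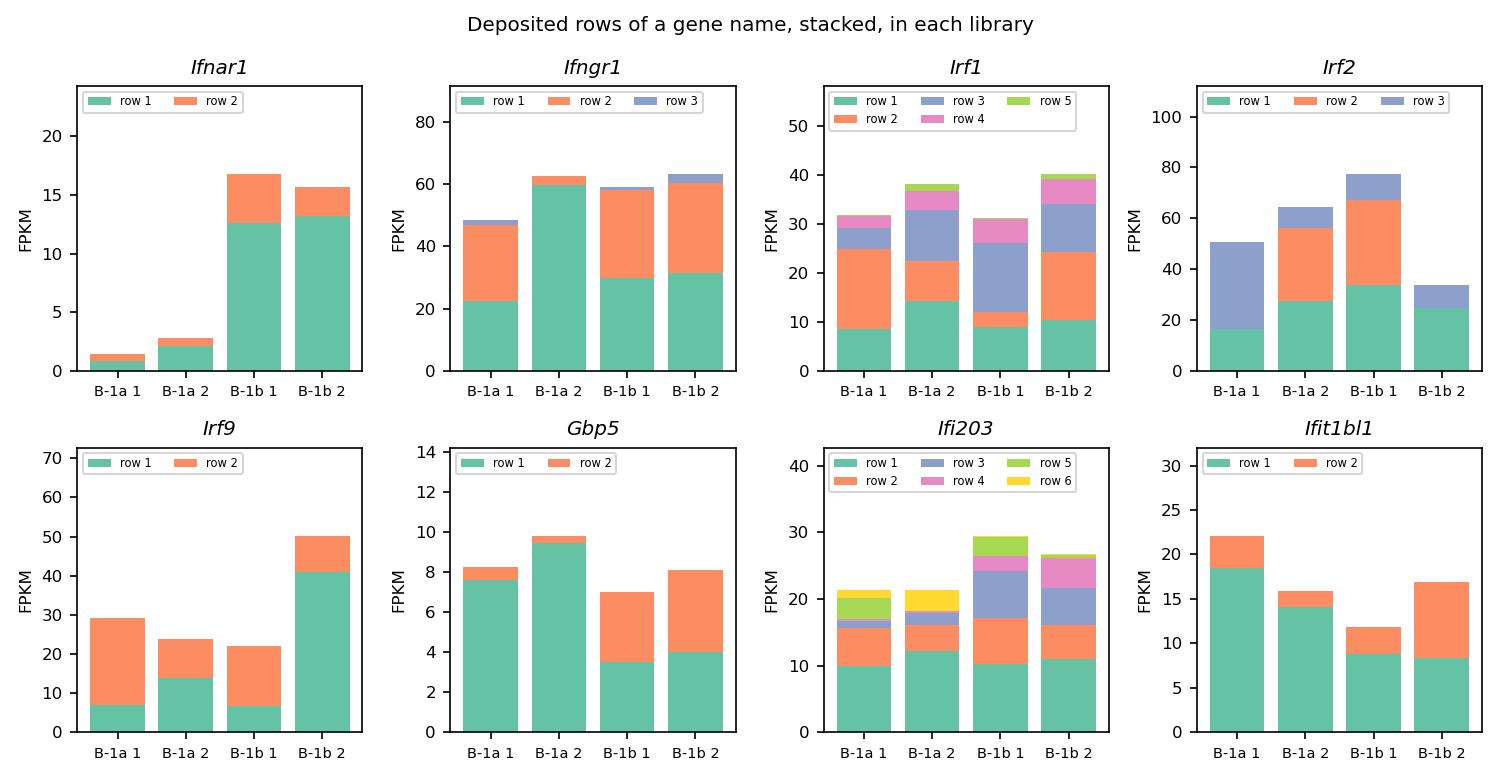
Deposited rows of 8 genes, stacked to the sum of the gene in FPKM (y axis), for each of the 4 libraries (x axis); row 1 has the highest mean. Both rows of Ifnar1 are larger in B-1b, the rows of Gbp5 shift in opposite directions, and the second row of Irf2 is at 0 in 1 library of each group.

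Other genes of the pathway were taken from lists of regulators, sensors and interferon-induced genes outside the name patterns. None of them passed the FDR in limma, and those named here had an unadjusted p under 0.05 and were chosen after their values were seen. Of 13 regulators of interferon signaling tested, such as SOCS proteins and phosphatases, 8 had a positive log2 fold change (56.2% of all genes tested) and 0 had an unadjusted p under 0.05 (9.66% of all genes). Of 13 nucleic acid sensors and adaptors, 3 were higher and 5 lower in both B-1b libraries, where 25.8% and 17.3% of all genes tested were. Myd88, the adaptor of most Toll-like receptors, was at 38.7 and 33.7 FPKM in B-1a and at 15.3 and 17.0 FPKM in B-1b (log2 difference -1.12, standard error 0.17, limma, adjusted p = 0.220). Unc93b1, which carries nucleic acid-sensing Toll-like receptors to endosomes, was at 189 and 220 FPKM in B-1a and at 131 and 110 FPKM in B-1b (-0.76, standard error 0.18, limma, adjusted p = 0.343). Ikbke, a kinase that acts on Irf3, was higher in B-1b, at 1.12 and 1.22 against 3.21 and 3.38 FPKM.
Of 48 other interferon-induced genes, 8 were higher and 12 lower in both B-1b libraries, against the same 25.8% and 17.3% of all genes, and the median log2 fold change was -0.01. Slfn1, a Schlafen protein of lymphocytes, was at 28.4 and 34.5 FPKM in B-1a and at 13.5 and 14.8 FPKM in B-1b (log2 difference -1.09, standard error 0.18, limma, adjusted p = 0.240). Tap1, a subunit of the peptide transporter for MHC class I, was at 64.4 and 72.6 FPKM in B-1a and at 31.5 and 36.0 FPKM in B-1b (-1.0, standard error 0.16, limma, adjusted p = 0.239). Sp110, a nuclear body protein, was at 18.6 and 18.8 against 9.82 and 10.6 FPKM, and Pml, which organizes nuclear bodies, was at 63.7 and 23.5 against 10.3 and 9.75 FPKM. Cd47, a surface signal against phagocytosis, was the one of these with higher values in B-1b, at 34.0 and 45.3 against 77.6 and 60.4 FPKM.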

How the data were processed

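Per the submitters' processing notes and the study's methods, HISAT2 (alignment to GRCm38/mm10), StringTie (quantification) and Ballgown were run by the authors. No version or annotation release is stated in what was used here. The deposited values were read as FPKM, an inference from their fractional form and differing column sums, since the table names no unit. No whole-read steps were seen, so depth is unknown. Rows of a name were summed, and names were matched to GENCODE M21 (GRCm38), which also gave gene coordinates. A gene entered the test at 1 FPKM or more in 2 or more of 4 libraries (7557 genes). The test was that of limma 3.58.1 (R 4.3.3) on log2(FPKM + 1), with the prior allowed to follow the mean level and Benjamini-Hochberg adjustment over all genes. The fit was tested on simulated data. Main samples were replicates 1 and 2 of each group.

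The members and gene lists were chosen with earlier results of these data known. Named genes were receptor, JAK, STAT and IRF genes and, per family, those with an unadjusted p under 0.05, the 2 with the largest absolute log2 fold change and the 2 with the highest mean, besides genes with rows in opposite directions or listed at 0 in a group. Isg15, Ifit3, Usp18, Oasl2 and members named as not tested were named outside this rule, after their values were seen. Alternatives changed the filter, pseudocount, scaling, libraries, block, prior and use of rows. A member was counted in the fit and is not reported here.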

Additional observations from a re-analysis of the deposited data

How the results depend on the processing

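A fit with 1 library left out has 1 library in a group, so its spread comes from the other group alone. Only effect sizes of such fits are given. The median log2 fold change of the interferon, IRF and STAT genes came to between -0.005 and 0.168 in them. At the FDR, limma called 15 genes in the main fit, 7 without the filter, 9 with no trend in the prior and 6 with rows kept apart. It called 0 with the replicate number as a block (614 at an unadjusted p under 0.05). The numbers 1 and 2 are shared by the groups, but samples with the same number did not deviate together (correlation across 7557 genes 0.00124, 2 pairs). None of the 60 was called with or without the block, so the calls could not show an effect of it. The unadjusted p was under 0.05 for 6 of the 60 in both fits, though that of Gbp2b moved from 0.0838 to 0.0108 (limma). With all 6 columns as deposited, which counts derived columns as libraries, limma called 1259 genes (16.7%) and 9 of the 60. An unadjusted p under 0.05 went to 18 of the 60 and to 2545 of the 7557 genes tested in that fit. The 9 called included Ifnar1, Bst2, Ifi207, Ifi203, Gbp8, Jak2 and Trim25 upward and Ifngr2 downward. Gbp8 entered the test through its B-1b libraries alone. The median over the 60 was 0.049 with equal upper quartiles and 0.039 with the row of highest mean standing for each gene. Of 44 named genes tested, 24 kept their sign with each library left out, among them Ifnar1, Bst2, Ifi207, Stat4, Stat5b and Ifngr2. The other 20 did not, and their cause was not tested. They were Gbp3 (-0.23 to 0.24), Ifi209 (-0.29 to 0.07), Ifi27l2a (-0.68 to 0.46), Ifi30 (-0.36 to 0.25), Ifi47 (-0.38 to 0.24), Ifitm2 (-0.15 to 0.34), Ifitm3 (-0.15 to 0.49), Ifngr1 (-0.04 to 0.33), Irf1 (-0.16 to 0.20), Irf2 (-0.74 to 0.43), Irf3 (-0.05 to 0.38), Irf5 (-0.30 to 0.26), Irf9 (-0.24 to 0.90), Jak1 (-0.05 to 0.36), Jak3 (-0.02 to 0.61), Oas3 (-0.20 to 0.13), Oasl1 (-0.10 to 0.47), Stat2 (-0.10 to 0.08), Stat3 (-0.12 to 0.16) and Stat6 (-3.34 to 0.17). Equal upper quartiles turned Gbp3 to -0.04, Irf1 to -0.03 and Stat3 to -0.02. All 6 columns turned Gbp3 to -0.01, Irf1 to -0.04, Irf2 to 0.04, Irf5 to 0.04, Oas3 to 0.01 and Stat2 to 0.02. The row of highest mean alone turned Ifi203 to -0.05, Ifngr1 to -0.24, Irf1 to -0.17, Irf2 to 0.43 and Oasl1 to -0.21. Stat5b came to 0.81 with the implied value of B-1a replicate 2, added after the data were seen. Unknown depth limits what low genes such as Irf7 and Gbp8 can show.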
